A study of Mus musculus with 12 samples.

Results

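The collagen chain genes are all rows of the count table whose symbol is Col, a type number, the letter a and a chain number. They numbered 44 of 49568 genes in the table. By the usual grouping of the family they fell into 11 fibrillar chains, 6 network chains of type IV, 9 FACIT chains, 3 short-chain chains, 6 chains of type VI, 2 multiplexin chains, 4 transmembrane chains and 3 others of types VII, XXVI and XXVIII. RNA was taken from heart cells enriched for cardiomyocytes, in 4 groups of 3 libraries, from male mice 7 days after trans-aortic constriction (TAC), a surgical narrowing that makes the left ventricle pump against a high pressure, or after a sham operation. Tamoxifen was injected daily for 3 days into the mice of each group (30 ug/g, at 8 weeks of age), surgery came at 10 weeks and the hearts were taken at 11 weeks, per the labels' protocols, while the design text puts the surgery at 8 weeks. The question the series puts is how loss of the myocardin-related transcription factors (MRTFs), load-sensitive partners of serum response factor, changes the response of cardiomyocytes to that load.

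Control mice carried alphaMHC-MerCreMre/+, a tamoxifen-inducible Cre driven by a promoter of cardiomyocytes. The dKO mice are labelled MHC-MerCreMre/+; Mrtf-a-/-; Mrtf-bflox/flox, so that they lacked Mrtf-a in all cells, fibroblasts included, while Mrtf-b was floxed and the Cre was driven in cardiomyocytes. The Cre transgene and tamoxifen were shared by all 4 groups, and the controls are not labelled with either MRTF allele. Nothing in the labels says that the libraries of a group came from separate animals, so p-values measure the spread between these samples, which may be technical.

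Collagens are secreted as triple helices of 3 chains, and their classes build different structures. Fibrillar chains form the load-bearing fibres of scar and interstitium, type IV chains form the sheet of basement membranes that wraps each cardiomyocyte and capillary, and type VI chains form beaded filaments beside that sheet. FACIT chains (fibril-associated collagens with interrupted triple helices) sit on the surface of fibres, the short-chain types VIII and X form lattices, multiplexins anchor basement membranes, and transmembrane chains stay in the cell membrane. In the heart most fibrillar collagen is made by fibroblasts, whereas basement membrane chains are made by several cell types. The cells were separated by sedimentation, which leaves some cells that are not cardiomyocytes, and in such bulk RNA fewer cells of a type and less RNA per cell cannot be told apart.

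Promoters of the fibrillar chains Col3a1, Col5a1 and Col11a1 and of the short-chain Col8a1, which rose after TAC, are shown so that the letters upstream of them can be compared. Promoters of the other chains, fibrillar ones included, are not printed. Those shown are the 250 bases before the start site from RefSeq on GRCm38.p6, written 5′ to 3′ on the strand of the gene. Matches to the motifs named below are in capitals.
Col3a1, chr1:45311288-45311537, plus strand: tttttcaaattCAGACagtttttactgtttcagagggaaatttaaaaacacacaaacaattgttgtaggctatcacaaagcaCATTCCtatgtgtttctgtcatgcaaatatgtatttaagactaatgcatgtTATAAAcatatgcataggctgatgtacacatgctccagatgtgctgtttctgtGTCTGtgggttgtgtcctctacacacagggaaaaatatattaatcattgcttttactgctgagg
Col5a1, chr2:27886175-27886424, plus strand: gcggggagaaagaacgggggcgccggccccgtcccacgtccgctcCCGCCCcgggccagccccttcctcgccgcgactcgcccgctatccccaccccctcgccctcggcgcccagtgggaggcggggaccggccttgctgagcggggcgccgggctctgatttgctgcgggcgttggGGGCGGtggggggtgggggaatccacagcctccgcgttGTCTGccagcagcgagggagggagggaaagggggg
Col11a1, chr3:114030290-114030539, plus strand: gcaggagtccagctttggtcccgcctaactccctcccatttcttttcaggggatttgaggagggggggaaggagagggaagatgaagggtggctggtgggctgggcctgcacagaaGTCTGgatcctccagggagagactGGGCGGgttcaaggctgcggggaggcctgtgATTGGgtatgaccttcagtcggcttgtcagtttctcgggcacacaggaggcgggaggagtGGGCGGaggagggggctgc
Col8a1, chr16:57754738-57754987, minus strand: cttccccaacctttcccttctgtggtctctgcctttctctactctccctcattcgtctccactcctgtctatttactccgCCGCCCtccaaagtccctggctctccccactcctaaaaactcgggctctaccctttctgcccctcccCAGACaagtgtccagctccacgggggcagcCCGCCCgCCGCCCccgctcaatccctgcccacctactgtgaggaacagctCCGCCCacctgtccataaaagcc
Col3a1 had a TATA box (TATAAA), a TEAD element (CATTCC) and 2 SMAD elements (CAGAC, here also as GTCTG on the other strand) and no GC box (GGGCGG). Col5a1, Col11a1 and Col8a1 had 2, 2 and 4 GC boxes and 1 SMAD element each. Col11a1 alone of these 4 also had a CCAAT box. No capitals of different motifs overlapped in these windows. The window of Col11a2, a fibrillar chain that fell after TAC, is not printed and had 2 GC boxes and 1 TATA box.

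RefSeq promoters were matched for 35 of the 44 members, in 38 windows, and were searched on both strands. A CCAAT box stood in 34.2% of these windows against 33.8% of all 32817 windows in the table, a SMAD element in 44.7% against 42.2%, a TEAD element in 10.5% against 12.6% and a TATA box in 13.2% against 12.4%. The GC box stood in 57.9% of member windows against 32.7% of all windows. The CArG box, the element that serum response factor binds with MRTFs, was found in 1 member window, that of Col6a4, or 2.63% against 1.47% of all windows. These are matches of letters within 250 bases.

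Libraries held between 20082000 and 29675212 counts, and levels are given in CPM, a count over its library's total as scaled by the TMM method, for which 3 counts corresponded to between 0.0935 and 0.184 CPM. Values of a group are given in the order of replicates 1 to 3. The targeted Mkl1, the table's name for Mrtf-a, lay between 7.59 and 16.0 CPM in control libraries and between 2.15 and 3.20 CPM in dKO libraries, with no overlap. Its log2 difference, dKO minus control averaged over surgeries, was -2.08 ± 0.19 (SE, adjusted p = 0.000191). For Mkl2, the table's name for Mrtf-b, the ranges were 30.1 to 44.1 and 15.2 to 28.1 CPM, without overlap, but its difference of -0.71 ± 0.16 (SE, adjusted p = 0.0887) did not pass, nor did it after sham or after TAC alone (adjusted p = 0.507 and 0.518). Libraries dKO sham 1 and dKO TAC 2 stood apart in the share of counts from mitochondrially encoded genes, 16.5% and 15.3% against 23.2% to 32.6% in the others. Library dKO sham 1 was also the lowest of its group for 31 of the 37 collagen chains that were tested, and dKO TAC 2 for 25. Among control TAC libraries, number 1 was the lowest for 33 chains and number 3 the highest for 30. The median ratio of the highest to the lowest library of a group was 2.17 after sham and 3.89 after TAC in control hearts, and 2.46 and 1.53 in dKO hearts.

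After TAC, averaged over the genotypes (6 against 6 libraries), 26 of the 37 tested chains rose and 1, Col11a2, fell. Calls rest on edgeR's quasi-likelihood test with Benjamini-Hochberg adjustment over 14712 genes, of which 9.53% were called higher, 7.08% lower and 16.6% in either direction. Of the 37 tested chains, 31 reached the count minimum (10 counts in a library of median size) in at least 3 sham libraries. The other 6 (Col6a5, Col8a2, Col9a2, Col9a3, Col11a1 and Col26a1) did not reach it there. Col8a2, Col9a2 and Col11a1 reached it in 0 sham libraries and Col26a1 in 1, so that these chains were tested only because they were higher after TAC. A further 7 of the 44 members were too low to be tested. Of the 31, 22 rose and 1 fell, against 8.54% and 7.48% of the 13929 genes that met the same minimum in sham. The median log2 change was 1.52 over these 31 chains and -0.02 over those genes. By class, 7 of 8 fibrillar, 4 of 6 network, 4 of 5 FACIT, 3 of 4 type VI, 2 of 2 multiplexin, 1 of 1 short-chain, 0 of 3 transmembrane and 1 of 2 other chains among the 31 rose. Their median log2 changes were 2.96 in fibrillar, 2.70 in FACIT, 1.87 in multiplexin, 1.70 in type VI, 1.25 in network and 0.01 in transmembrane chains. The classes were not tested against each other.

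**Figure D1:**
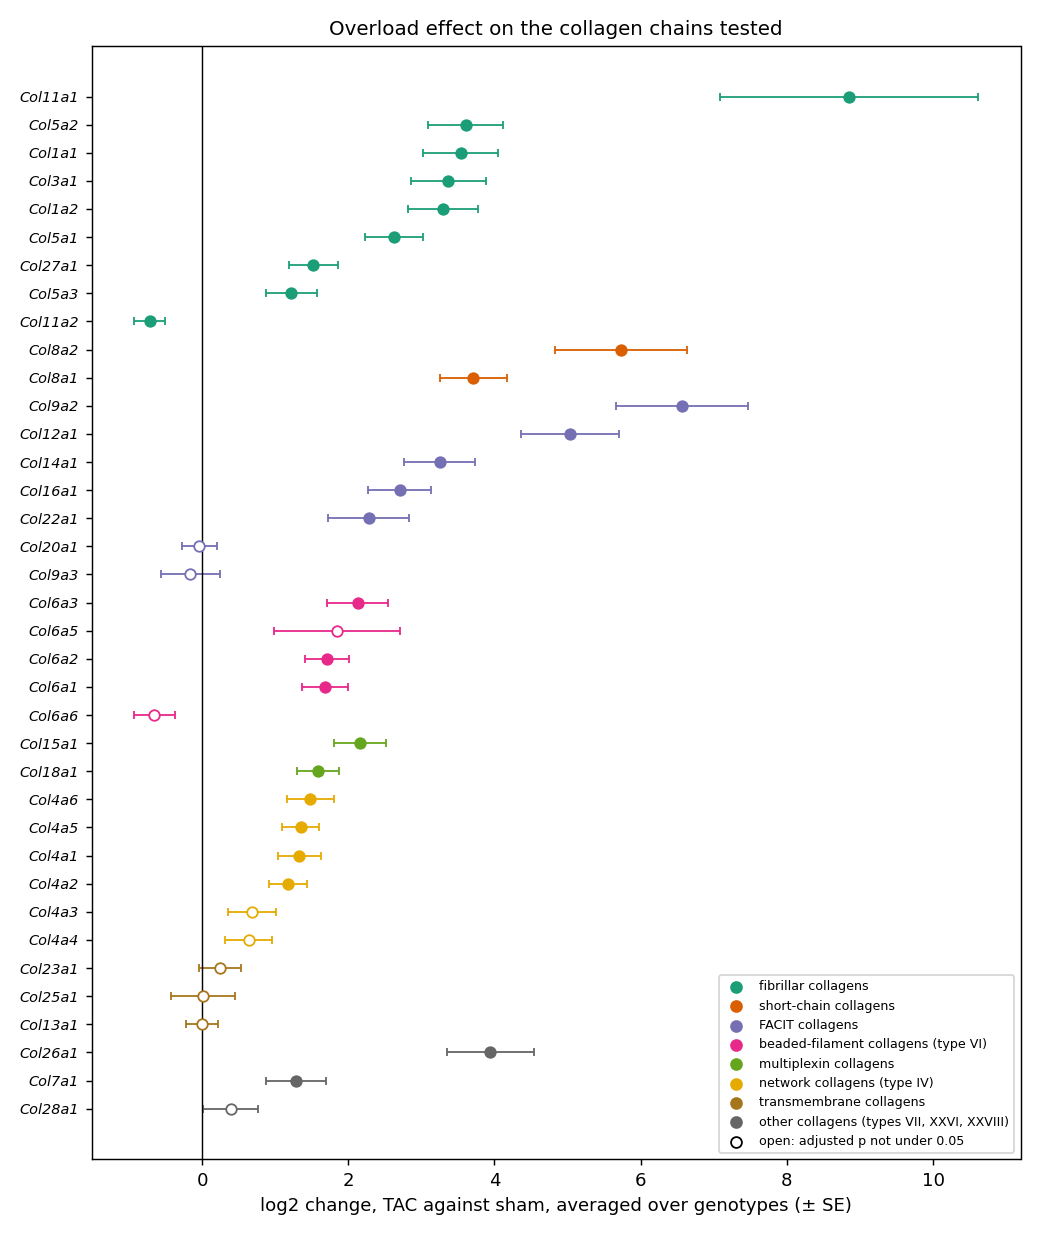
Log2 change after TAC averaged over genotypes (x axis, points, with SE bars) for the 37 tested collagen chains, grouped and coloured by class. Filled points passed an adjusted p of 0.05: 26 lie to the right of 0 and Col11a2 lies to the left. The size drawn for Col11a1 rests on a sham total of 4 counts.

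In each genotype alone the counts were smaller. In control, 15 of 37 chains passed, against 2.25% of all genes. Of them 15 rose and 0 fell, where 1.9% of all genes rose and 0.347% fell. In dKO, 15 chains passed against 7.39% of all genes, 14 of them higher and 1 lower, where 4.2% of all genes rose and 3.19% fell. Of these, 13 rose in both genotypes: Col1a1, Col1a2, Col3a1, Col5a1, Col5a2, Col8a1, Col8a2, Col9a2, Col12a1, Col14a1, Col15a1, Col16a1 and Col26a1. Among the 13, Col8a2, Col9a2 and Col26a1 did not meet the count minimum in sham. Of the 31 chains that met the count minimum in sham, 12 rose in control and 11 in dKO, against 1.59% and 3.73% of all such genes. Single libraries decide these counts. In control, 0 chains were called without control sham 1, control sham 3, control TAC 2 or control TAC 3, and 24 without control TAC 1. The control count was 10 without dKO TAC 1 or dKO TAC 3. In dKO, 3 were called without dKO TAC 1, 5 without dKO TAC 3 or dKO sham 2, 8 without dKO sham 1 and 23 without control TAC 1. The averaged count moved between 24 and 29 when any 1 library was left out, and it was 25 without both libraries that stood apart. Without low-count filtering, and with DESeq2, the counts in each genotype were higher, 23 and 24 in control and 24 and 25 in dKO. When the fit held just the sham and TAC libraries of 1 genotype, 0 chains were called in control and 19 in dKO, and without both libraries that stood apart 18 and 8. No chain kept its control call under every alternative. In dKO, 3 of 15 kept theirs whichever library was left out, and 6 of 15 under all the other alternatives. Every control TAC library exceeded every control sham library for 22 chains and lay below it for 0, against 11% and 10.8% of all genes. The same held in dKO for 26 chains and 1 chain, against 16.2% and 14.5%. The 22 and the 26 include Col8a2, Col9a2, Col11a1 and Col26a1, which did not meet the count minimum in sham, so that the filter favoured their separation.

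Among the 8 fibrillar chains that met the count minimum in sham, 7 rose and 1 fell, where 8.54% and 7.48% of all such genes did. The 3 most abundant rose by between 3.30 and 3.54 on the log2 scale. Col11a1, tested only because it was higher after TAC, was called higher as well. Col1a1 (chromosome 11, 94936224 to 94953042 on GRCm38), the alpha 1 chain of type I collagen, the main fibre of scar, had 37.0, 98.5 and 29.9 CPM after sham and 181, 695 and 1812 CPM after TAC in control hearts, and 29.1, 58.6 and 78.2 after sham and 521, 422 and 441 after TAC in dKO hearts. All TAC libraries lay above all sham libraries of both genotypes, and control TAC spread the most, with number 3 far above the dKO TAC libraries. Its log2 change was 3.54 ± 0.51 (SE, adjusted p = 0.00121) averaged, 4.02 ± 0.74 in control and 3.06 ± 0.71 in dKO. Its partner chain Col1a2 (chromosome 6, 4504814 to 4541544) had 61.6, 129 and 58.1 CPM after sham and 205, 722 and 2106 CPM after TAC in control hearts, and 44.5, 84.9 and 106 after sham and 719, 497 and 648 after TAC in dKO hearts. The order of libraries within each group was that of Col1a1, and the averaged log2 change was 3.30 ± 0.48 (SE, adjusted p = 0.00126).

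Col3a1, the single chain of type III collagen, a thinner fibre laid down early in repair, had the highest CPM of the fibrillar chains. It had 82.2, 234 and 56.4 CPM after sham and 408, 1179.8 and 3046 CPM after TAC in control hearts, and 52.3, 127 and 167 after sham and 1106, 901 and 956 after TAC in dKO hearts, with no overlap between TAC and sham in either genotype. The averaged log2 change was 3.37 ± 0.51 (SE, adjusted p = 0.0015). Col3a1 (chromosome 1, 45311538 to 45349706) lies end to end with Col5a2 (chromosome 1, 45374321 to 45503282), with 24614 bases between them and the genes on opposite strands. Col5a2 is a chain of type V collagen, which starts and thins fibres, and it had 18.7, 38.5 and 17.2 CPM after sham and 57.7, 228 and 657 CPM after TAC in control hearts, and 13.0, 23.8 and 33.5 after sham and 352, 189 and 287 after TAC in dKO hearts. Its averaged log2 change was 3.61 ± 0.51 (SE, adjusted p = 0.00103), and again no TAC library fell within the range of sham.

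The other type V chains had smaller log2 changes than Col5a2. Col5a1, its usual partner, had 25.5, 48.8 and 19.9 CPM after sham and 67.6, 205 and 415 CPM after TAC in control hearts, and 16.2, 33.5 and 39.9 after sham and 178, 146 and 147 after TAC in dKO hearts, with an averaged log2 change of 2.63 ± 0.40 (SE, adjusted p = 0.0015). Col5a3, a chain found in fewer tissues, had 10.4, 34.6 and 9.08 CPM after sham and 27.5, 60.9 and 57.7 CPM after TAC in control hearts, and 9.15, 16.0 and 22.5 after sham and 31.3, 38.4 and 26.6 after TAC in dKO hearts. Sham and TAC overlapped in control, where control sham 2 exceeded control TAC 1, and the averaged log2 change was 1.22 ± 0.35 (SE, adjusted p = 0.0332). The call held on leaving out control sham 2, control TAC 1, dKO sham 3 or dKO TAC 3, and was lost on leaving out any of the other 8 libraries, the adjusted p then lying between 0.0518 and 0.084, and it was 0.0879 without both libraries that stood apart.

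The type XI chains, minor fibrillar chains best known from cartilage, went in opposite directions. Col11a1 had 0, 0 and 0 CPM after sham and 0.0374, 4.91 and 25.98 CPM after TAC in control hearts, and 0, 0 and 0.151 after sham and 11.4, 0.499 and 6.16 after TAC in dKO hearts. It was at 0 counts in all control sham libraries, so that its mean in control TAC was at least 82.0-fold higher than 3 counts per library would give. It passed averaged over genotypes (adjusted p = 0.00882) and in neither alone (adjusted p = 0.0819 and 0.076). Control TAC 1 held 1 count of it, and control TAC 3 most. Col11a2 had 2.19, 2.65 and 2.57 CPM after sham and 2.32, 2.03 and 2.09 CPM after TAC in control hearts, and 3.44, 2.73 and 1.69 after sham and 0.981, 0.966 and 1.396 after TAC in dKO hearts. It fell by 0.72 on the log2 scale averaged (SE 0.21, adjusted p = 0.0386), with a log2 change of -1.23 ± 0.31 in dKO (adjusted p = 0.0321) and -0.20 ± 0.30 in control (adjusted p = 0.818). The 3 dKO TAC libraries were the lowest of all 12. The averaged call held on leaving out control TAC 1, dKO sham 3 or dKO TAC 3, and was lost on leaving out any of the other 9 libraries, with adjusted p up to 0.108. It was also lost with the replicate block (0.0639), without low-count filtering (0.0872) and without both libraries that stood apart (0.0769). The dKO call of Col11a2 was lost with only the 2 dKO groups in the fit (adjusted p = 0.108) and without both libraries that stood apart (0.096). Leaving out dKO sham 1 (0.0708) or dKO TAC 1 (0.154), among other single libraries, lost it too.

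Col27a1, a fibrillar chain with a shorter helix, had 3.88, 4.45 and 4.32 CPM after sham and 3.78, 10.1 and 23.0 CPM after TAC in control hearts, and 2.52, 3.38 and 2.79 after sham and 9.84, 6.61 and 8.21 after TAC in dKO hearts. Its control TAC 1 value was below all control sham values, while the other TAC libraries of both genotypes were above sham, and its averaged log2 change was 1.52 ± 0.34 (SE, adjusted p = 0.0105). The remaining fibrillar members, Col2a1 and Col24a1, were too low to be tested. Col2a1, the cartilage chain, had 1 count in the 6 sham libraries and 51 in the 6 TAC libraries, and Col24a1 had 9 and 91.

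**Figure D2:**
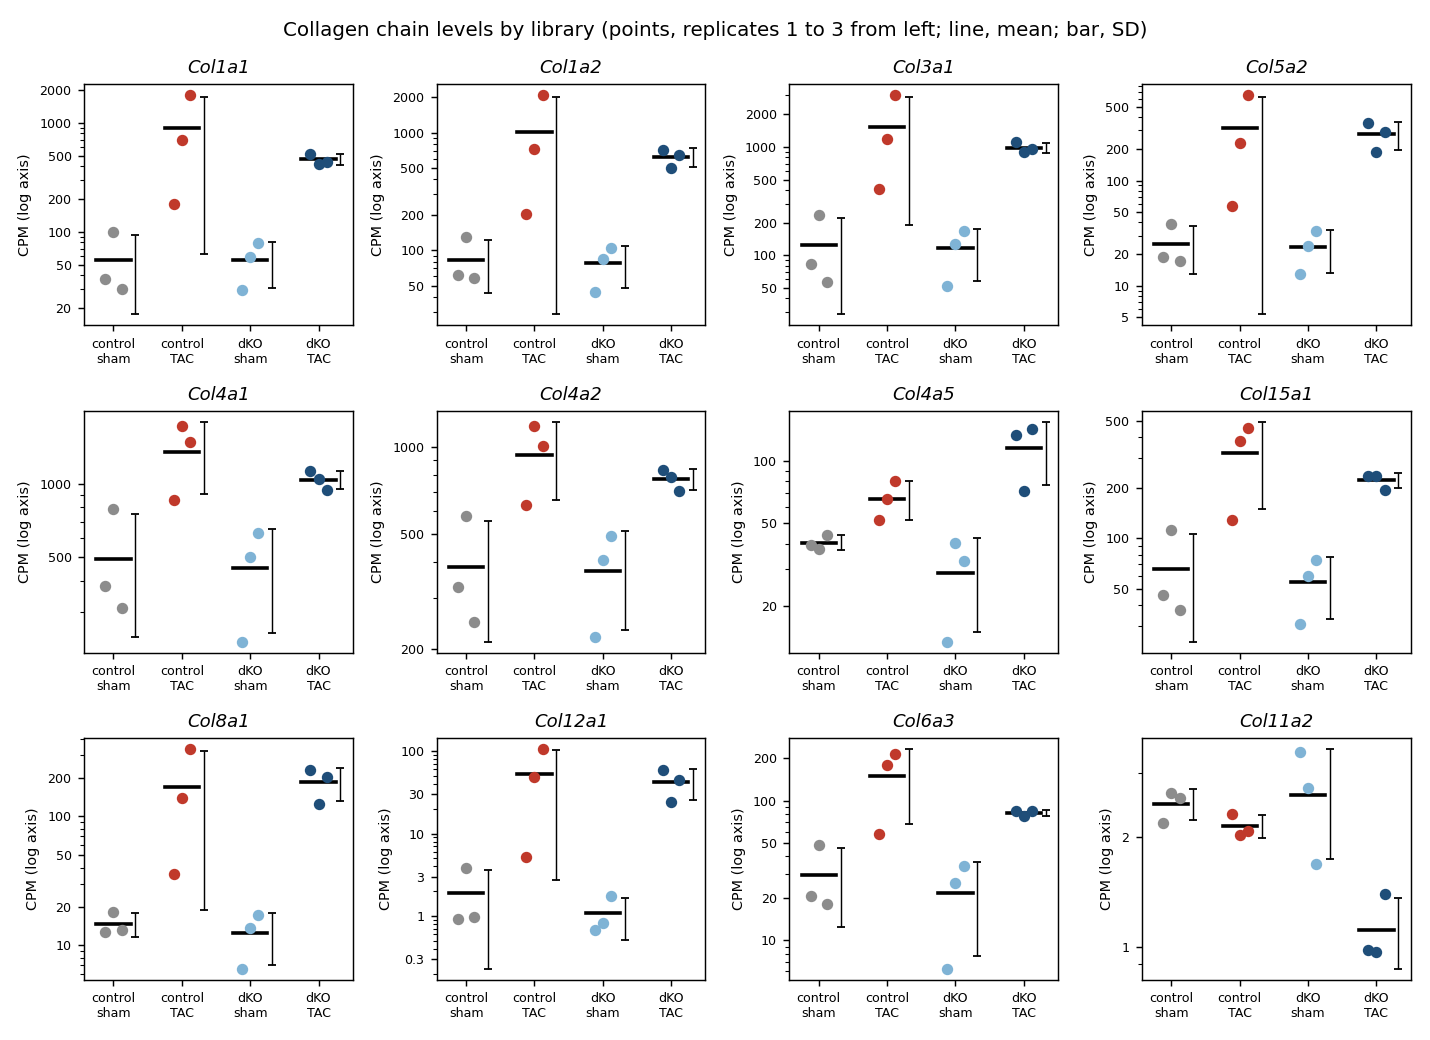
CPM (y axes, log scale) of 12 collagen chains in each library, with 3 libraries per group (points), the group mean (line) and the SD (bar). The rows hold fibrillar chains, network chains with Col15a1, and chains of other classes with Col11a2. Control TAC spreads widely for the fibrillar chains, Col1a1 running from 181 to 1812 CPM, and Col11a2 is lowest in dKO TAC.

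Network chains were the most abundant class per length in sham hearts, and 4 of 6 rose. Col4a1, which forms the common basement membrane helix together with Col4a2, had 380.1, 786 and 310.0 CPM after sham and 861, 1717 and 1478 CPM after TAC in control hearts, and 226, 500.2 and 627 after sham and 1123, 1049 and 944 after TAC in dKO hearts. Every TAC library exceeded every sham library of its genotype, although control sham 2 came close to control TAC 1. The averaged log2 change was 1.33 ± 0.30 (SE, adjusted p = 0.011), and neither genotype passed alone (adjusted p = 0.0997 in control and 0.0921 in dKO). Col4a2 had 326, 574 and 247 CPM after sham and 627, 1177 and 1009 CPM after TAC in control hearts, and 219, 406 and 492 after sham and 829.9, 784 and 705 after TAC in dKO hearts, with an averaged log2 change of 1.17 ± 0.26 (SE, adjusted p = 0.0101) and the same libraries high and low. The 2 genes lie head to head on chromosome 8, Col4a1 starting at 11312826 on the minus strand and Col4a2 at 11312805 on the plus strand, with 22 bases of annotated exon in common.

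Col4a5, a chain of the basement membrane helices of kidney and smooth muscle, rose in dKO and did not pass in control with all libraries in the fit. It had 39.5, 37.7 and 44.1 CPM after sham and 51.9, 65.8 and 80.0 CPM after TAC in control hearts, and 13.5, 40.2 and 32.9 after sham and 133, 71.4 and 143 after TAC in dKO hearts. Control TAC was above control sham by little, and dKO TAC 1 and 3 were the highest of all 12 libraries, while dKO sham 1 was the lowest. Log2 changes were 1.35 ± 0.25 (SE, adjusted p = 0.00469) averaged, 2.0 ± 0.36 (SE, adjusted p = 0.00953) in dKO and 0.70 ± 0.35 (SE, adjusted p = 0.344) in control. The dKO call was lost with only the 2 dKO groups in the fit (adjusted p = 0.0519). Without both libraries that stood apart, Col4a5 was called higher in control too, at 0.70 ± 0.16 (SE, adjusted p = 0.0398). With all libraries in the fit, the difference between the effects in dKO and in control, the interaction, was 1.30 ± 0.50 (SE, adjusted p = 0.841) and did not pass.

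Col4a6, the chain that pairs with Col4a5 in smooth muscle, was low. It had 0.685, 1.20 and 0.818 CPM after sham and 1.31, 1.78 and 4.14 CPM after TAC in control hearts, and 0.614, 1.08 and 1.24 after sham and 3.31, 2.21 and 3.20 after TAC in dKO hearts, and its averaged log2 change was 1.48 ± 0.32 (SE, adjusted p = 0.00927). Col4a6 and Col4a5 lie head to head on the X chromosome with 1308 bases between their starts. The third head-to-head pair, Col4a3 and Col4a4, chains of the kidney filter membrane with 71 bases between their starts on chromosome 1, did not pass. Their averaged log2 changes were 0.68 ± 0.33 (SE, adjusted p = 0.178) and 0.64 ± 0.32 (SE, adjusted p = 0.195), at levels between 0.922 and 13.3 CPM over all libraries. In each of the 3 pairs the averaged changes of the partners lay within 1 SE of each other. So did those of Col4a1 (1.33) and Col4a5 (1.35), which are not such a pair. In control alone the changes of Col4a5 and Col4a6 were 0.70 ± 0.35 and 1.42 ± 0.45 (SE).

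The short-chain class was led by Col8a1 (chromosome 16, 57624258 to 57754737), whose protein forms the hexagonal lattice of type VIII collagen and is known from vessel walls and remodelling hearts. It had 12.7, 18.2 and 13.1 CPM after sham and 35.8, 140.1 and 334 CPM after TAC in control hearts, and 6.57, 13.7 and 17.1 after sham and 229.8, 124 and 201 after TAC in dKO hearts, with no overlap in either genotype. The averaged log2 change was 3.71 ± 0.46 (SE, adjusted p = 0.000565), the smallest adjusted p of the family, with 3.53 ± 0.64 in control and 3.89 ± 0.66 in dKO. Its relative Col8a2 (chromosome 4, 126286793 to 126314330) had 0.0457, 0.300 and 0.149 CPM after sham and 0.524, 7.15 and 40.4 CPM after TAC in control hearts, and 0.430, 0.288 and 0.264 after sham and 13.6, 3.80 and 11.5 after TAC in dKO hearts. The 6 sham libraries held 34 counts of Col8a2 in all and the 6 TAC libraries 2259, and the averaged log2 change was 5.73 ± 0.91 (SE, adjusted p = 0.00191). Both passed in each genotype, but Col8a2 reached the count minimum in 0 sham libraries and was tested only because it was higher after TAC. The dKO call of Col8a2 was lost under several alternatives, with adjusted p up to 0.111 (without dKO TAC 1). Col10a1, the chain of hypertrophic cartilage, had 0 counts in sham libraries and 9 in TAC libraries and was not tested.

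FACIT chains were low in sham hearts. Among the 5 that met the count minimum in sham 4 rose, where 8.54% of all such genes did. Col9a2, tested only because it was higher after TAC, was called higher as well. Col12a1, a FACIT chain that binds type I fibres in tissues under tension, had 0.914, 3.85 and 0.967 CPM after sham and 5.17, 48.7 and 106 CPM after TAC in control hearts, and 0.676, 0.827 and 1.73 after sham and 58.7, 24.3 and 44.9 after TAC in dKO hearts. TAC and sham did not overlap in either genotype, with control TAC 1 much nearer to sham than the other TAC libraries. Its averaged log2 change was 5.03 ± 0.67 (SE, adjusted p = 0.000827), from 4.80 ± 0.93 in control and 5.26 ± 0.97 in dKO. Col14a1, which binds fibres together with the proteoglycan decorin, had 6.35, 12.9 and 6.29 CPM after sham and 20.3, 54.1 and 177 CPM after TAC in control hearts, and 3.50, 7.66 and 9.60 after sham and 88.7, 37.9 and 66.1 after TAC in dKO hearts, with an averaged log2 change of 3.25 ± 0.49 (SE, adjusted p = 0.00143).

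Col16a1, a minor chain beside fibres and basement membranes, had 5.39, 11.0 and 5.51 CPM after sham and 13.5, 38.0 and 124 CPM after TAC in control hearts, and 6.02, 7.55 and 9.60 after sham and 49.0, 35.4 and 38.4 after TAC in dKO hearts. Its averaged log2 change was 2.70 ± 0.44 (SE, adjusted p = 0.00213), and each TAC library lay above the sham libraries of its genotype. Col9a2, a chain of the cartilage collagen IX, had 0, 0.0856 and 0 CPM after sham and 0.599, 3.02 and 13.2 CPM after TAC in control hearts, and 0, 0.144 and 0.188 after sham and 8.08, 2.62 and 9.45 after TAC in dKO hearts. The averaged log2 change was 6.57 ± 0.90 (SE, adjusted p = 0.000931), a size that rests on 11 counts in the 6 sham libraries against 1058 in the TAC libraries. Its partner Col9a3 had 0.457, 0.428 and 0.186 CPM after sham and 0.225, 0.427 and 0.228 CPM after TAC in control hearts, and 0.430, 0.108 and 0.339 after sham and 0.169, 0.281 and 0.370 after TAC in dKO hearts, with overlap in both genotypes, and did not pass (log2 change -0.16 ± 0.41). The third partner, Col9a1, had 1 count in all libraries together.

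Col22a1, a chain of tissue junctions such as that of muscle and tendon, had 0.640, 0.171 and 0.558 CPM after sham and 0.412, 0.961 and 5.16 CPM after TAC in control hearts, and 0.983, 0.647 and 0.640 after sham and 4.87, 2.09 and 4.19 after TAC in dKO hearts. In control its TAC 1 library lay within the sham range, whereas dKO TAC and dKO sham did not overlap. The averaged log2 change was 2.28 ± 0.56 (SE, adjusted p = 0.017), and neither genotype passed alone. Col20a1 was -0.04 ± 0.24, between 0.698 and 1.85 CPM in all libraries, and Col19a1 had 7 counts in all and was not tested.

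Of the type VI chains, the 3 that form the classical heterotrimer rose. Col6a1 had 52.8, 98.8 and 41.4 CPM after sham and 102, 219 and 397 CPM after TAC in control hearts, and 38.6, 65.1 and 76.5 after sham and 174, 172 and 155 after TAC in dKO hearts, with an averaged log2 change of 1.68 ± 0.32 (SE, adjusted p = 0.0049). Col6a2 had 46.4, 92.4 and 38.2 CPM after sham and 105, 223 and 351 CPM after TAC in control hearts, and 42.4, 58.1 and 81.7 after sham and 171, 181 and 159 after TAC in dKO hearts, with 1.71 ± 0.30 (SE, adjusted p = 0.00335). Both genes lie in the same direction on chromosome 10 with 85161 bases between them. In the third chain, Col6a3, the longest of the trimer, values were 20.9, 48.5 and 18.3 CPM after sham and 57.9, 179 and 216 CPM after TAC in control hearts, and 6.27, 25.8 and 33.8 after sham and 84.1, 77.3 and 84.2 after TAC in dKO hearts. Its averaged log2 change was 2.13 ± 0.42 (SE, adjusted p = 0.00604). For these 3 chains no TAC library fell within the sham range of its genotype, and of the 3 only Col6a2 passed in control alone (adjusted p = 0.04), with 0.0525 in dKO.

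The later type VI chains, which can take the place of Col6a3, did not pass with all libraries in the fit. Col6a6 had a log2 change of -0.65 ± 0.28 (SE, adjusted p = 0.132), with 6.40, 9.59 and 5.88 CPM after sham and 3.48, 5.55 and 7.54 CPM after TAC in control hearts, and 1.78, 5.65 and 5.42 after sham and 2.20, 2.46 and 2.26 after TAC in dKO hearts. The dKO TAC libraries were close together and below all others except dKO sham 1. In dKO alone its log2 change was -0.91 ± 0.40 (SE, adjusted p = 0.17), and it was called lower without dKO sham 1, at -1.26 ± 0.31 (SE, adjusted p = 0.0365), and without both libraries that stood apart, at -1.31 ± 0.36 (SE, adjusted p = 0.0482). Col6a5 had at most 0.824 CPM, with a log2 change of 1.85 ± 0.86 (SE, adjusted p = 0.162). Col6a4 was not tested, with 3 counts in sham and 7 in TAC libraries.

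Both multiplexins rose. Col15a1, a chain that links basement membranes to fibres around muscle cells and capillaries, had 46.2, 112 and 37.2 CPM after sham and 129, 383 and 458 CPM after TAC in control hearts, and 30.9, 59.9 and 74.7 after sham and 235, 236 and 196 after TAC in dKO hearts, with an averaged log2 change of 2.16 ± 0.36 (SE, adjusted p = 0.00254). Col18a1, the source of the fragment endostatin, had 7.81, 13.9 and 9.52 CPM after sham and 15.2, 37.5 and 58.6 CPM after TAC in control hearts, and 8.54, 13.2 and 13.3 after sham and 30.5, 35.0 and 22.8 after TAC in dKO hearts, with 1.58 ± 0.29 (SE, adjusted p = 0.00395). For both, TAC and sham did not overlap in either genotype. In dKO alone Col15a1 passed and Col18a1 did not (adjusted p = 0.0334 and 0.0632).

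Among transmembrane chains Col23a1 was the most abundant per length, and had 1.14, 1.54 and 1.71 CPM after sham and 1.76, 1.39 and 4.41 CPM after TAC in control hearts, and 2.33, 1.80 and 1.81 after sham and 1.42, 1.62 and 1.81 after TAC in dKO hearts. Only control TAC 3 stood above the rest, and the averaged log2 change was 0.25 ± 0.28 (SE, adjusted p = 0.579). Col13a1, found at muscle and nerve contacts, and Col25a1 had log2 changes of 0.00 and 0.01 (adjusted p = 0.998 and 0.987). SEs taken from changes so near 0 are not reliable. In control and dKO alone the SEs were 0.41 and 0.42 for Col13a1 and 0.65 and 0.70 for Col25a1. Col17a1, the hemidesmosome chain of skin, had 13 counts in sham and 9 in TAC libraries and was not tested. Of the other types, Col26a1 had 0.183, 0.0856 and 0.0744 CPM after sham and 0.674, 1.53 and 4.41 CPM after TAC in control hearts, and 0, 0.144 and 0.414 after sham and 3.21, 1.96 and 2.59 after TAC in dKO hearts, with an averaged log2 change of 3.94 ± 0.59 (SE, adjusted p = 0.00138) that rests on 23 counts in sham libraries. Col7a1, the anchoring fibril chain, had 0.960, 1.33 and 1.23 CPM after sham and 0.824, 2.53 and 6.98 CPM after TAC in control hearts, and 1.04, 1.403 and 1.20 after sham and 2.94, 1.65 and 2.92 after TAC in dKO hearts. Its averaged log2 change was 1.29 ± 0.41 (SE, adjusted p = 0.0497), at the edge of the threshold, and the call was lost on leaving out any of the 11 libraries other than control TAC 1, with adjusted p up to 0.132. Col28a1 was 0.39 ± 0.37 (adjusted p = 0.494).

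Fibrillar chains held a larger share of collagen RNA after TAC and network chains a smaller one. To compare chains, CPM was divided by the length of the longest principal coding transcript, which gives CPM per kb. Summed over all 44 chains this was 201, 405 and 165 CPM per kb after sham and 503, 1255 and 2267 after TAC in control hearts, and 133, 261 and 325 after sham and 1056, 865 and 913 after TAC in dKO hearts. Fibrillar chains held 21.9% ± 2.63 (SD) of that sum after sham and 45.9% ± 15.05 after TAC in control hearts, and 22.8% ± 0.984 after sham and 46.4% ± 2.21 after TAC in dKO hearts. Network chains held 55.6% ± 2.18, 33.5% ± 14.98, 54.5% ± 1.4 and 31.5% ± 1.99 in the same order. Sham and TAC libraries did not overlap for either share in either genotype. With 3 libraries a group the 2-sided exact permutation test cannot go below p = 0.1 in 1 genotype, and none was run on these sums over members.

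The summed level of network chains was 141 ± 65.3 after sham and 362 ± 112 CPM per kb after TAC in control, and 131 ± 54.9 and 297 ± 22.7 in dKO. That of fibrillar chains was 58.5 ± 37.0 and 704 ± 641 in control, and 55.3 ± 24.4 and 439 ± 62.2 in dKO. So network chains had higher means after TAC while their share was lower. In control TAC the fibrillar share was 32.7%, 42.7% and 62.3% in libraries 1 to 3 and the network share 47.0%, 36.2% and 17.4%. Short-chain chains held 1.24% ± 0.341 after sham and 2.34% ± 0.940 after TAC in control hearts, and 1.05% ± 0.00437 and 4.03% ± 0.959 in dKO hearts. FACIT chains held 1.44% ± 0.187, 2.11% ± 0.860, 1.45% ± 0.304 and 2.71% ± 0.647. The type VI share was 13.6% ± 0.230 and 14.1% ± 1.49 in the sham groups of control and dKO and 10.4% ± 1.17 and 9.94% ± 1.11 in their TAC groups.

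**Figure D3:**
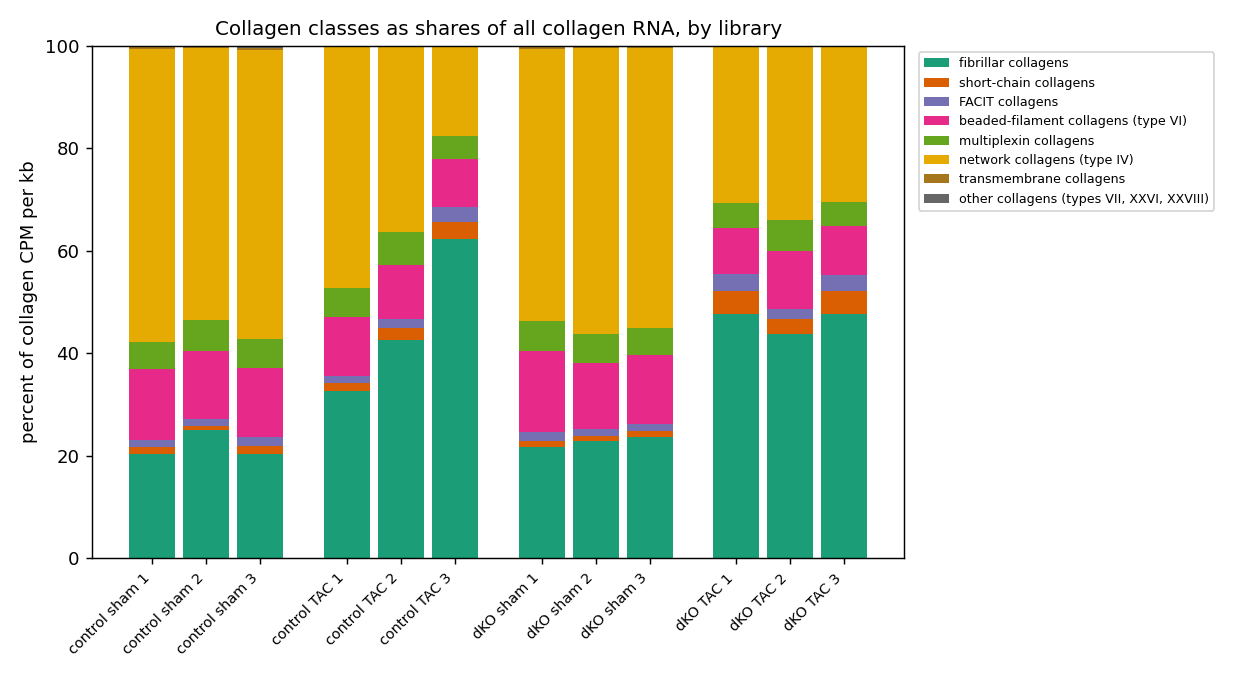
Share of each collagen class in the summed collagen CPM per kb (y axis, percent) of each of the 12 libraries (bars). Fibrillar chains take between 20.4% and 24.9% in control sham and between 32.7% and 62.3% in control TAC, and network chains shrink in turn.

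Ratios between chains were taken within each library per length of the transcript used above, and they depend on that length. Transcripts of Col1a1, Col1a2, Col6a1 and Col6a2 had 5930, 5348, 4100 and 3949 bases, and their exon unions 6563, 12426, 4380 and 8326. Over exon unions Col1a1 to Col1a2 and Col6a1 to Col6a2 would be higher, and the ratios were not computed that way. Col4a1 stood at 1.004 to 1.43 times Col4a2 and Col6a1 at 0.877 to 1.10 times Col6a2 over all 12 libraries. Col1a1 was 0.566 ± 0.114 (SD) of Col1a2 after sham and 0.813 ± 0.0483 after TAC in control hearts, and 0.627 ± 0.0392 and 0.678 ± 0.0791 in dKO hearts, below the 2 to 1 of the type I protein in every library. These are ratios of RNA, and protein was not measured here. The ratio of Col5a1 to Col5a2 was 0.995 ± 0.0842 in control sham and 0.710 ± 0.213 in control TAC, while in dKO it was 1.008 ± 0.0886 after sham and 0.469 ± 0.119 after TAC. In dKO all TAC ratios, 0.398 to 0.607, lay below all sham ratios, 0.938 to 1.11. In control they overlapped, at 0.498 to 0.923 after TAC and 0.909 to 1.08 after sham. A difference between genotypes in this ratio was not tested. The ratio of Col1a1 to Col4a1 was 0.119 ± 0.0183 after sham and 0.685 ± 0.601 after TAC in control, and 0.138 ± 0.00660 and 0.496 ± 0.0407 in dKO, without overlap in either.

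Between the genotypes 0 of 37 chains passed after sham, after TAC, averaged over surgeries or in the interaction, where 0.068%, 0.428%, 0.585% and 0% of all genes were called by edgeR. At an unadjusted p under 0.05 there were 0, 3, 1 and 2 chains. Median log2 differences of dKO from control over the 37 chains were -0.10 after sham and -0.47 after TAC, and over all genes 0.02 and -0.03. Control TAC 3 was the highest of its group for 30 of the 37 chains, and these medians were not tested. DESeq2 called 0 chains after sham, after TAC and in the interaction, and 1 averaged over surgeries, Col6a6 (log2 difference -1.01 ± 0.29, adjusted p = 0.0257). Without both libraries that stood apart edgeR called Col4a5 after TAC, at a log2 difference of 1.07 ± 0.17 (adjusted p = 0.0132).

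The precision for single chains was low. After TAC, dKO minus control was, on the log2 scale, -0.96 ± 0.66 for Col1a1, -0.65 ± 0.66 for Col3a1, -0.38 ± 0.41 for Col4a1 and 0.12 ± 0.58 for Col8a1, each ± SE. For Col6a6 the difference was -1.26 ± 0.40 (SE, adjusted p = 0.285) after TAC and -0.75 ± 0.39 (SE, adjusted p = 0.507) after sham, with all dKO libraries below all control libraries within each surgery. For Col11a2 it was -0.95 ± 0.30 (SE, adjusted p = 0.288) after TAC, again without overlap, and the interaction was -1.02 ± 0.42 (SE, adjusted p = 0.841). Over all 37 chains, the dKO and control libraries did not overlap after sham for 2 higher and 4 lower chains, against 9.27% and 9.42% of all genes, and after TAC for 0 higher and 2 lower chains, against 9.8% and 7.79%. The SEs of Col1a1 and Col3a1 are such that a 2-fold difference was not detectable with 3 libraries a group.

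**Figure D4:**
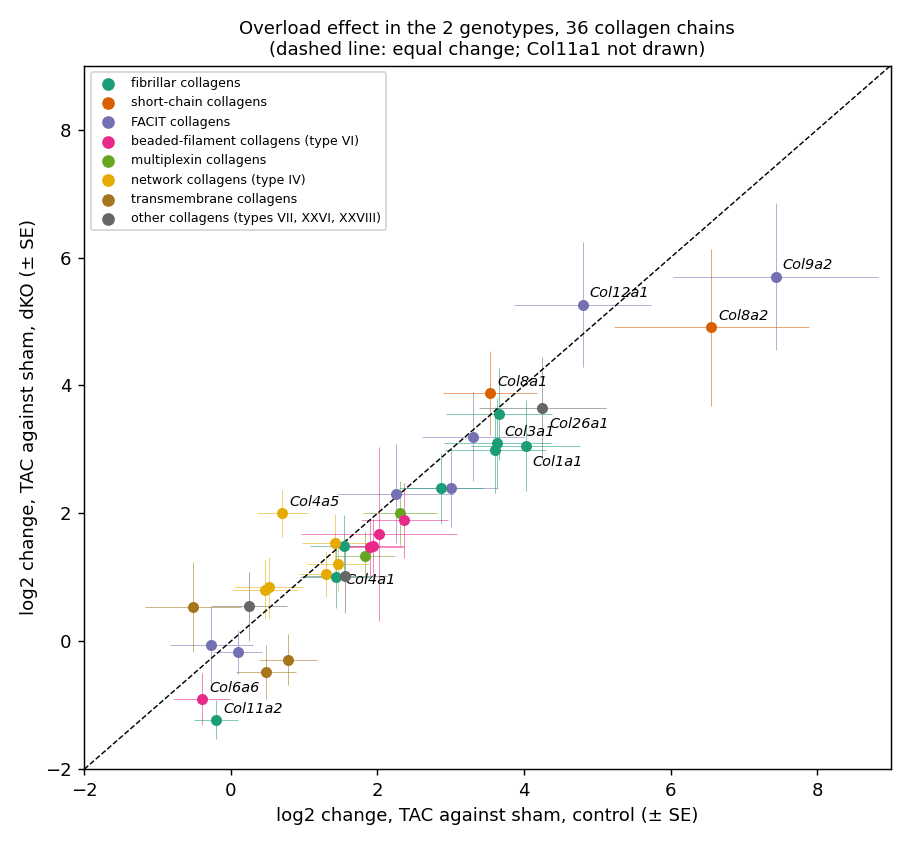
Log2 change after TAC in control (x axis) against that in dKO (y axis) for 36 collagen chains, with SE bars, coloured by class. The dashed line marks equal change; Col4a5 lies above it (0.70 and 2.0) and Col11a2 below it (-0.20 and -1.23), and neither interaction passed.

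Genes that make, trim and link collagen were counted from lists chosen for their roles, and are to be read against the 9.53% of all genes called higher and 7.08% called lower. Of 13 genes for procollagen cleavage and crosslinking, 8 rose and 1 fell averaged over genotypes. They include Lox, the oxidase that starts crosslinks, at 4.89 ± 0.66 (SE, adjusted p = 0.000868), Loxl2 at 2.5 ± 0.34 (SE, adjusted p = 0.000868) and Adamts2, which removes the amino propeptide, at 2.43 ± 0.39 (SE, adjusted p = 0.00201). The 1 that fell was Tll2, a tolloid protease, at -1.79 ± 0.36 (SE, adjusted p = 0.00657). Of 22 genes for synthesis and folding, 12 rose and 1 fell. Sparc, a collagen-binding chaperone-like protein, was at 1.57 ± 0.26 (SE, adjusted p = 0.00257) and P4ha3, a prolyl hydroxylase subunit, at 4.60 ± 0.80 (SE, adjusted p = 0.00325), while Serpinh1, the collagen chaperone HSP47, was at 0.83 ± 0.19 (SE, adjusted p = 0.0123).

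Of 10 collagen receptors 9 were tested and 5 rose, among them the kinase receptor Ddr1 at 0.59 ± 0.11 (SE, adjusted p = 0.00412) and the uptake receptor Mrc2 at 1.76 ± 0.33 (SE, adjusted p = 0.00433). Of 12 collagen-binding matrix proteins 7 rose, with Postn, periostin, at 4.96 ± 0.60 (SE, adjusted p = 0.000506) and the proteoglycan Bgn at 2.40 ± 0.35 (SE, adjusted p = 0.00128). Among list genes that met the count minimum in sham, 8 of 13, 11 of 21, 5 of 8 and 7 of 12 rose in the order of these 4 lists, and their median log2 changes were 1.27, 0.50, 0.66 and 1.44, against -0.02 over all such genes. Between genotypes 0 genes of the 4 lists passed in any of the 4 comparisons.

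Among the marker lists of other cells, most genes rose in that of activated fibroblasts. Of its 10 markers 9 rose averaged over genotypes, where 9.53% of all genes rose and 7.08% fell, and of the 9 that met the count minimum in sham 8 rose. The summed level of all 10 was 45.9 to 103 CPM after sham and 234 to 3810.3 CPM after TAC in control hearts, and 45.9 to 101 and 1190.1 to 1985 CPM in dKO hearts. In control TAC this sum was 234, 1320.1 and 3810.3 CPM in libraries 1 to 3, in the same order as Col1a1 and Col3a1. Sums of resident fibroblast markers (539, 695 and 1114 CPM) and macrophage markers (154, 330 and 530 CPM) had that order there too. Those of cardiomyocyte markers had the reverse order (86815, 64903 and 51518 CPM). Endothelial sums and pericyte and smooth muscle sums were highest in library 2. In dKO TAC the activated fibroblast sums (1985, 1190.1 and 1755 CPM) again had the order of Col1a1 and Col3a1. Resident fibroblast sums (564, 663 and 513 CPM) and macrophage sums (272, 327 and 184 CPM) did not have it there. Cardiomyocyte sums (46424, 51264 and 54362 CPM) did not have its reverse. Of 12 resident fibroblast markers 3 rose and 2 fell, with sums of 732 to 1176, 539 to 1114, 887 to 1073 and 513 to 663 CPM in control sham and TAC and then dKO sham and TAC. None of their defining genes was at 0: Pdgfra lay between 5.16 and 50.0 CPM and Tcf21 between 2.33 and 9.37 CPM over the 12 libraries. Postn and Comp stand both in the activated fibroblast list and among the collagen-binding proteins.

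The other lists held fewer calls, beside the same shares of 9.53% higher and 7.08% lower over all genes. Of 10 endothelial markers 0 passed (1236 to 1785, 1332 to 1773, 928 to 1821 and 870.3 to 1318 CPM summed). Of 10 macrophage markers 2 rose, Ptprc and Adgre1 (summed 110.4 to 238, 154 to 530.0, 163 to 199 and 184 to 327 CPM). Of 10 pericyte and smooth muscle markers 1 rose and 2 fell (1274 to 1910, 1199 to 1583, 719.5 to 1585 and 803 to 1120.1 CPM). None of Pecam1, Cdh5, Csf1r and Rgs5, defining genes of these cells, was at 0 in any library. Of 10 cardiomyocyte markers 4 fell (67216 to 88398, 51518 to 86815, 63558 to 114485 and 46424 to 54362 CPM), and Myh6, the defining gene of adult cardiomyocytes, lay between 11154 and 28100.0 CPM, far above every collagen chain. Acta2, of the pericyte and smooth muscle list, was lower in dKO averaged over surgeries (adjusted p = 0.0218), where 0.585% of all genes were called. No other gene of these marker lists passed between genotypes. The part of any of the cells of these lists in the collagen changes was not tested.

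**Figure D5:**
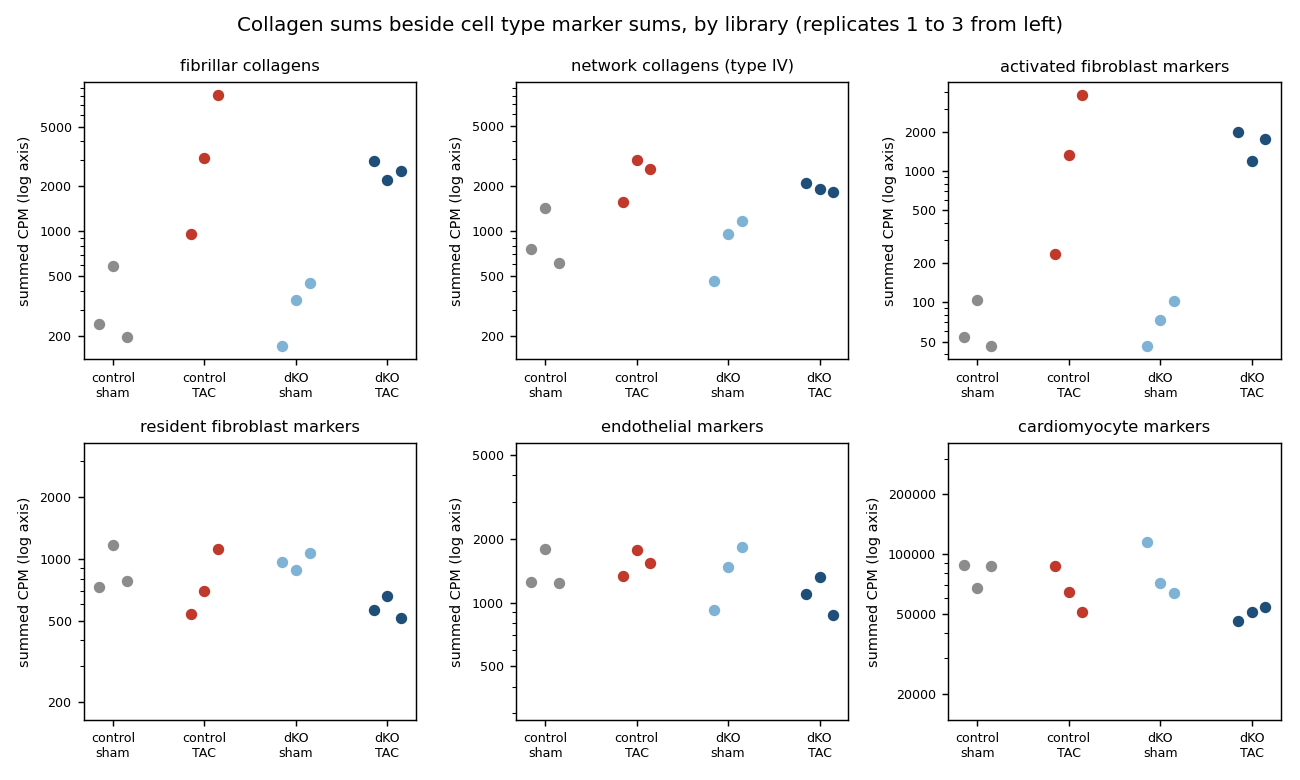
Summed CPM (y axes, log scale) of fibrillar and network collagens and of 4 marker lists in each library, with replicates 1 to 3 from left in each group. Activated fibroblast markers run from 234 to 3810.3 CPM over control TAC, in the order of the fibrillar chains. Resident fibroblast markers have that order there too, and cardiomyocyte markers the reverse, while endothelial marker sums of sham and TAC overlap. In dKO TAC resident fibroblast markers do not follow the fibrillar chains, and cardiomyocyte markers do not have the reverse order.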

How the data were processed

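The authors deposited whole-number counts of reads for each gene. The submitters' processing notes name STAR 2.5.2b, Trimmomatic 0.36, featureCounts and Subread 1.5.0p3, with the build GRCm38.p5, and their settings, strandedness and annotation are not given in these sources. Reads from genes that share exons on opposite strands may therefore not be separated, and for collagen chains this touched at most 6.07% of exon bases.

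In R 4.3.3, edgeR 4.0.16 fitted its quasi-likelihood model to all 12 libraries with TMM scaling, the filterByExpr rule by group (14712 genes left) and 1 mean per group, with 8 residual degrees of freedom. The F test's p-values were adjusted over all these genes by Benjamini-Hochberg, and 0.05 was the threshold for a call. SEs come from the log2 change and its F statistic, and are not reliable where the change is very near 0. Floors of 3 counts cover counting error only. Coordinates and transcript lengths are from GENCODE release M21 (GRCm38), in which all 44 members matched by symbol. No pair of libraries within a group was a duplicate. The fit was also tested on simulated data in which 200 genes were changed.

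Members, lists, tests and the rule for naming genes were chosen with earlier results of these data known. Every library's value is printed for chains called in any comparison, the most abundant chain per length of each class, and the obligate partners of these in types I, IV, V, VI and VIII. Up to 3 called genes of each other list are named. Col6a6, Col9a3, Ptprc, Adgre1, Tll2, Serpinh1 and the members too low to test were named after their values were seen. Alternatives were DESeq2 1.42.0, other size factors, no low-count filter, a replicate block, 2 groups only and leaving libraries out. Exon-union lengths were added after seeing the data. 1 list of markers of other cells is not reported here.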

Additional observations from a re-analysis of the deposited data

How the results depend on the processing

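Of 27 chains called averaged over genotypes, 24 were called under every alternative run, the exceptions being Col5a3, Col7a1 and Col11a2, and the count was 27 with DESeq2, 26 with its size factors, 28 without low-count filtering and 25 both with the replicate block and without both libraries that stood apart. Leaving out 1 library gave 24 to 29. For TAC in control (15 chains) the count was 23 without low-count filtering, 24 with DESeq2, 16 with its size factors, 12 with the replicate block, 18 without both libraries and 0 when only the 2 groups were fitted, with 0 to 24 on leaving out 1 library. For TAC in dKO (15 chains) it was 24 without filtering, 25 with DESeq2, 15 with its size factors, 19 both with the block and with 2 groups and 8 without both libraries (Col6a6 among them, lower, as without dKO sham 1), with 3 to 23 on leaving out 1 library. Between genotypes the count stayed at 0 on leaving out any 1 library, and was 1 after TAC without both libraries (Col4a5) and 1 averaged over surgeries with DESeq2 (Col6a6). No called change reversed. The cause of these shifts was not tested.

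The replicate numbers did not pair the libraries: 9 of 18 same-number pairs correlated above 0.1, and 3 of 12 libraries correlated best with their own number. DESeq2 size factors moved the median of all genes by at most 0.02 on the log2 scale.

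Over exon-union lengths the fibrillar share was 17.0%, 17.9% and 39.0% in control sham, dKO sham and dKO TAC, the network share 62.8%, 61.9% and 39.3% and the short-chain share of dKO sham 0.849%. In plain CPM the network share was 60.6%, 59.8% and 35.3%, and the short-chain share of dKO sham 0.89%. Leaving out 1 library gave fibrillar shares of 20.4% to 22.7%, 37.7% to 52.5%, 22.3% to 23.3% and 45.7% to 47.7% in control (sham, TAC) and dKO (sham, TAC). Network shares were 54.8% to 56.8%, 26.8% to 41.6%, 53.9% to 55.3% and 30.3% to 32.1%, FACIT shares 1.34% to 1.52%, 1.62% to 2.44%, 1.27% to 1.55% and 2.46% to 3.07%, and short-chain shares 1.07% to 1.41%, 1.87% to 2.81%, 1.05% to 1.05% and 3.74% to 4.58%. Sizes for Col8a2, Col9a2, Col11a1 and Col26a1 rest on at most 34 counts in the 6 sham libraries.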
